A study of Mus musculus with 8 samples.

Results

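The vomeronasal transduction and maturity genes are the 9 genes Gnai2, Gnao1, Gng8, Gng13, Xntrpc, Ano1, Ano2, Cnga4 and Omp, chosen by symbol from the 27532 genes of the deposited table. All 9 had a row in the table and all 9 passed the filter on low values described below. They were followed in dissected vomeronasal organ, the pheromone-sensing organ at the base of the nasal septum, from 4 adult mice labelled Tex15Het (heterozygous) and 4 labelled Tex15KO (knockout). The controls were heterozygous and so carried 1 altered Tex15 allele themselves, and a wild-type group was not analysed here. The labels name no strain, promoter or Cre line. Heterozygous replicate 1 was male and aged 11.4 weeks, replicate 2 female and 14.6 weeks, and replicates 3 and 4 female and 11.9 weeks. Knockout replicate 1 was female and 11.9 weeks, replicates 2 and 3 male and 11.9 weeks, and replicate 4 male and 12.1 weeks. The last field of the title, whose meaning the labels do not state, was the same for 5 libraries, heterozygous replicates 3 and 4 and knockout replicates 1, 2 and 3, and different for each of the other 3. The comparison asks whether the signalling apparatus of vomeronasal neurons differs in level or in balance when Tex15 is lost, the receptor repertoire being the subject of the study's title.

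Vomeronasal sensory neurons form an apical layer, which uses V1R receptors and the G protein subunit encoded by Gnai2, and a basal layer, which uses V2R receptors and the subunit encoded by Gnao1. In both layers receptor activation leads through phospholipase C to opening of the cation channel TRPC2, and calcium entry then opens chloride channels of the anoctamin family. OMP, the olfactory marker protein, appears as chemosensory neurons mature, and it is made by vomeronasal neurons and by the neurons of the main olfactory epithelium alike.

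Values are TPM, transcript abundances scaled by gene length to a common sum in each library, as deposited by the authors. Whole reads recovered from the steps between low values gave 17884091 to 26415660 reads per library, and 1.4% of tested genes had groups that did not overlap. Tex15 was one of these: heterozygous libraries held 2.27 to 2.81 TPM of it and knockout libraries 0.870 to 1.23 TPM (limma adjusted p 0.794). Gland genes (Lcn3, Lcn4, Obp2a and Obp2b) took 5.43% to 24.1% of all TPM in a library. Heterozygous replicate 2 stood apart: its olfactory receptor genes summed to 393 TPM, against 65.4 to 181 TPM in the other 7 libraries, while its V1R sum (310.5 TPM) and V2R sum (508 TPM) were below all others. Ratios between members within a library are given beside the levels, because rescaling a library leaves them almost as they are. In whole-organ RNA, fewer neurons and less RNA per neuron cannot be told apart.

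For each member the deposited row, its place in the genome (mouse build GRCm38, GENCODE M21) and its sharing of exons bear on what its value means. Gnai2 lies on chromosome 9 (107614125 to 107635367, minus strand) and Gnao1 on chromosome 8 (93809966 to 93969388, plus strand). Gng8 (16891786 to 16895436), Cnga4 (105404568 to 105408742) and Xntrpc (102065713 to 102096864) lie on the plus strand of chromosome 7, and Ano1 (144588549 to 144751974) and Omp (98143359 to 98145502) on its minus strand. Ano2 lies on chromosome 6 (125690419 to 126040126) and Gng13 on chromosome 17 (25717171 to 25719406), both on the plus strand. Xntrpc is the read-through gene that joins Xndc1 to Trpc2: it shares 49.4% of its exon bases with Trpc2 and 42.3% with Xndc1. How reads in those shared exons were assigned is not given in the sources used here, so the absolute level of the Xntrpc row is uncertain. Comparisons of this row between libraries all carry the same treatment. Gng13 shares 51.6% of its exon bases with Chtf18 on the opposite strand, which was listed at 0.381 to 1.15 TPM, far below Gng13 in every library. Omp is a gene of 1 exon inside the span of Capn5, on the same strand, with no shared exon bases.

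Gng8, which was low in a library where Gng13 and Cnga4 were high, and those 2 genes are shown by the 250 bases before their start sites (RefSeq, GRCm38.p6, plus strand). Capitals mark CCCNNGGG, the core of the binding motif of the Olf1/EBF factors that many olfactory genes carry, searched on both strands. The windows are chr7:16891536-16891785 for Gng8, chr17:25716922-25717171 for the first start of Gng13 and chr7:105404318-105404567 for Cnga4.
Gng8: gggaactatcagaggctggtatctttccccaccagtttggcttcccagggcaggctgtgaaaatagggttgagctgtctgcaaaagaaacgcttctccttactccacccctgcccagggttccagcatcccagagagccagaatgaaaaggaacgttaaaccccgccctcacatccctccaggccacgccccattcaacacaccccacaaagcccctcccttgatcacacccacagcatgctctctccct
Gng13: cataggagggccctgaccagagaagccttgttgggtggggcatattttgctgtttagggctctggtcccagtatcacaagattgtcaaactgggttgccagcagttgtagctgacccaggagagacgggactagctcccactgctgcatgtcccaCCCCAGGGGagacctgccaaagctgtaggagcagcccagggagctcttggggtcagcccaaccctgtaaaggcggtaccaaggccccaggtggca
Cnga4: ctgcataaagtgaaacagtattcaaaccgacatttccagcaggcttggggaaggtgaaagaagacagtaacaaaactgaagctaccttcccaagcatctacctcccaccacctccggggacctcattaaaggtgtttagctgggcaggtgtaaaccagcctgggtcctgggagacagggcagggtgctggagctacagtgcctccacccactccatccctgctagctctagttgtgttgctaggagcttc
The Gng13 window held 2 matches, which overlap each other in a single run, and the Gng8 and Cnga4 windows held 0. A window at a second Gng13 start held 0, while Ano1, which was low in that library, held 3 and a window of Ano2, also low there, held 1. Other windows of Ano2 and those of Gnao1 and Xntrpc, low there too, held 0. Windows of the same length upstream of starts in the RefSeq table held this core in 11.8% of 32851 cases. Of the 9 members, 7 had an entry in that table. A match is a description of these letters only.

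The alpha subunits of the layers overlapped between the groups in level. Gnai2 stood at 175, 114, 302 and 264 TPM in heterozygous replicates 1 to 4 and at 199, 216, 283 and 292 TPM in knockout replicates 1 to 4. The groups overlapped, with heterozygous replicate 2 lowest and heterozygous replicate 3 highest of the 8. Gnao1 stood at 17.3, 11.5, 30.7 and 23.7 TPM in heterozygous and at 16.8, 18.2, 19.8 and 24.2 TPM in knockout libraries, with the same 2 heterozygous libraries at the ends. Fold changes below are knockout over heterozygous in a limma fit of log2(TPM + 0.5) with sex as a term. Each SE and p-value is that of the fit before any subtraction. Printed fold changes are relative to the median of all tested genes, which itself moved by 0.19. On this scale, which understates the change of low genes, Gnai2 was at 0.06 (SE 0.37) and Gnao1 at −0.21 (SE 0.39). Neither passed the test (limma, adjusted p over all genes 1 for both when rounded to 3 digits).

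The balance of the alpha subunits leaned to Gnai2 in knockout libraries, without passing the adjusted test. The ratio of Gnai2 to Gnao1, taken as (TPM + 0.5) over (TPM + 0.5), was 9.86, 9.49, 9.70 and 10.9 in heterozygous libraries and 11.6, 11.6, 13.97 and 11.8 in knockout libraries. Every knockout library was above every heterozygous library. Heterozygous libraries had a mean of 9.99 ± 0.634 and knockout libraries one of 12.2 ± 1.16 (SD, n = 4). On the log2 scale they differed by 0.29. In a two-sided exact permutation test over the 70 assignments of 8 libraries p was 0.0286, the smallest that this design can give, and 0.143 after adjustment over the 10 ratios tested, so the ratio did not pass. With sex as a term in limma the difference was 0.27 (SE 0.12, limma adjusted p 0.162). Among the 6 animals numbered in the 7100s, which include heterozygous replicates 3 and 4 only, the log2 difference was 0.25 (exact permutation p = 0.133, the smallest those 6 libraries allow). In the 5 libraries that share a last title field it was 0.26, where an exact permutation p cannot go below 0.2. Between females it was 0.21 with 1 knockout library, and between males 0.33 with 1 heterozygous library.

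Gnai2 is also made by many cells that are not sensory neurons, so other pairs of layer markers were set beside it, a choice made after the values were seen. The 4 apical markers (Meis2, Nrp2, Pde4a, Kirrel2) and 4 basal markers (Tfap2e, Robo2, Kirrel3, Calr4) give 16 apical-to-basal ratios. The 16 ratios share these genes and so are not independent of each other. By their means 11 of the 16 were higher in knockout libraries, and 0 were without overlap between the groups. Their log2 differences ran from −0.27 to 0.51 with a median of 0.13, and among the 7100s animals 9 of 16 were higher. The summed immune list, of cells rich in Gnai2, ranged from 139 to 555 TPM in heterozygous and from 243 to 376 TPM in knockout libraries, with 5 of its 5 genes detected, and its part in the ratio was not tested.

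The ratio of a receptor family to the G protein of its own layer sets receptor RNA beside G protein RNA. For V1R genes it is not receptor RNA per neuron, since Gnai2 is also made by many other cells. V1R genes summed to 2.91, 2.73, 3.10 and 2.61 times Gnai2 in heterozygous and to 1.92, 2.95, 2.52 and 2.67 times in knockout libraries. The ranges overlapped, and the groups differed by −0.19 on the log2 scale (exact permutation p = 0.229, 0.229 after adjustment over 2 ratios), or by −0.066 without knockout replicate 1. With sex as a term in limma the difference was −0.33 (SE 0.14, limma adjusted p 0.0589), which does not pass. V2R genes summed to 47.8, 42.3, 45.6 and 42.1 times Gnao1 in heterozygous and to 31.1, 42.4, 38.8 and 34.5 times in knockout libraries. Knockout replicates 1, 3 and 4 were below every heterozygous library, and replicate 2 was not. The groups differed by −0.28 on the log2 scale (exact permutation p = 0.0857, or 0.171 adjusted). With sex as a term in limma the difference was −0.40 (SE 0.11, limma adjusted p 0.0244), which passes. Between females it was −0.48 with 1 knockout library, and between males −0.31 with 1 heterozygous library. Without a sex term it was −0.21 when knockout replicate 1 was left out, and −0.27 among the 7100s animals (exact permutation p = 0.267).

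Gng8 and Gng13 encode G protein gamma subunits, and Gng8 is the more characteristic of vomeronasal and immature olfactory neurons. Gng8 stood at 78.5, 43.7, 106.7 and 89.4 TPM in heterozygous and at 59.0, 79.3, 69.0 and 92.6 TPM in knockout libraries. The groups overlapped, and the fold change was −0.35 (SE 0.36), or −0.18 without a sex term. Gng13 stood at 37.2, 79.2, 30.9 and 38.3 TPM in heterozygous and at 26.9, 32.1, 27.6 and 32.0 TPM in knockout libraries. Heterozygous replicate 2 was 2.47 times the median of the other libraries for Gng13, while it was the lowest library for Gng8. The fold change of Gng13, −0.71 (SE 0.37), was the lowest of the 9 members and did not pass (limma adjusted p 1 when rounded to 3 digits). It was −0.41 without heterozygous replicate 2 and −0.023 in the 7100s animals without a sex term. The log2 ratio of Gng8 to Gng13 was −0.85 in the second heterozygous library, against 1.07 to 1.77 over the remaining 7 libraries, and the groups differed by 0.51 (exact permutation p = 0.6, or 0.943 adjusted). The log2 ratio of Gng13 to Gnai2 differed by −0.83 (exact permutation p = 0.229, or 0.571 adjusted) and by −0.27 without heterozygous replicate 2. Without that library the ratio of Gng8 to Gng13 differed by −0.042, and without heterozygous replicate 3 by 0.83.

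Some main olfactory genes were high with Gng13 in that library and some were low. Of the 7 genes of the list, 4 were higher there than in any other library and 3 were below the median of the others. Cnga2, the main subunit of the olfactory cyclic nucleotide channel, was at 27.3 TPM in heterozygous replicate 2 and at 1.27 to 13.5 TPM elsewhere. Gnal, the olfactory G protein alpha subunit, was at 14.7 TPM there and at 0.815 to 5.57 TPM elsewhere. Stoml3 was at 143 TPM there and at 13.7 to 70.2 TPM elsewhere, and the supporting cell gene Cyp2g1 at 758 TPM against 20.1 to 84.7 TPM. In the supporting cell list Cyp2a5, Sec14l3 and Ermn were also highest there. Krt18 (561 TPM) lay within the range of the other libraries, and Krt8 (456 TPM) near the low end of its range. The whole list of main olfactory neuron genes (7 of 8 analysed here) summed to 157 to 290 TPM in heterozygous and 154 to 217 TPM in knockout libraries, with no gene at 0. Averaged over the libraries, most of that sum was Rtp1 (132 of 208 TPM). In heterozygous replicate 2, where the list summed to 290 TPM, Rtp1 was at its lowest (85.4 TPM) and below Stoml3 (143 TPM). Cngb1 (6.64 TPM) and Gucy1b2 (0.609 TPM) were also low there, each above 1 other library only. The part of such tissue in the levels of Gng13, Cnga4, Ano2 and Omp, which main olfactory neurons also make, was not tested.

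**Figure D1:**
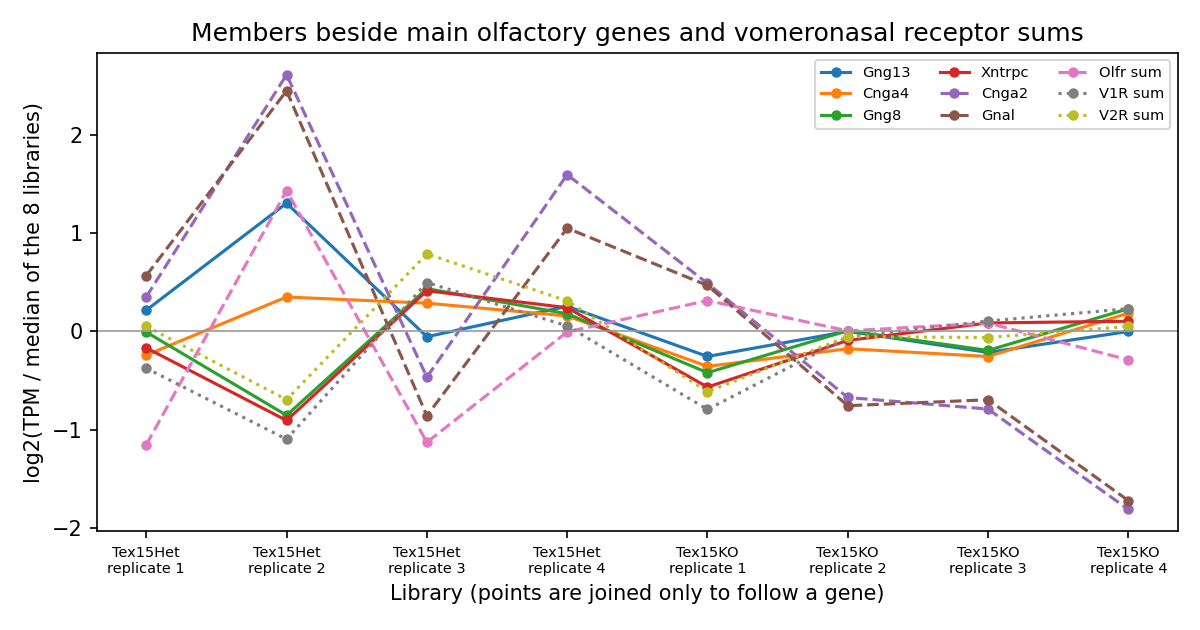
Log2 of the level in each library over the gene's median across the 8 libraries, for 4 members (solid lines), the main olfactory genes Cnga2 and Gnal and the olfactory receptor sum (dashed) and the V1R and V2R sums (dotted). In heterozygous replicate 2, Gng13 and Cnga4 are above their medians with Cnga2, Gnal and the olfactory receptor sum. Gng8 and Xntrpc are below theirs with the V1R and V2R sums. Of the 7 main olfactory list genes, 4 were highest in that library and 3 were below the median of the others.

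Xntrpc carries the TRPC2 channel on which vomeronasal responses depend. It stood at 9.10, 5.45, 13.6 and 12.1 TPM in heterozygous and at 6.90, 9.59, 10.9 and 10.98 TPM in knockout libraries, from 379 to 845 reads each. Heterozygous replicate 2 and knockout replicate 1 were low, and the groups overlapped. The fold change was −0.33 (SE 0.40), or −0.16 without a sex term. The ratio to Gnao1 was 0.538, 0.495, 0.453 and 0.520 in heterozygous and 0.428, 0.540, 0.559 and 0.465 in knockout libraries. The group difference was −0.015 on the log2 scale (exact permutation p = 0.943), or −0.12 (SE 0.12) with a sex term in limma.

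The ratio to Gnai2 separated the groups, by a small margin. The log2 ratio of Xntrpc to Gnai2 was −4.20, −4.26, −4.42 and −4.39 in heterozygous and −4.75, −4.43, −4.64 and −4.67 in knockout libraries. Every knockout library was below every heterozygous library, although heterozygous replicate 3 and knockout replicate 2 nearly touched. With a pseudocount of 1 in place of 0.5 these 2 libraries crossed and the groups overlapped (exact permutation, adjusted p 0.286). The difference was −0.31 (exact permutation p = 0.0286, adjusted over 10 ratios 0.143), −0.40 between females, −0.38 between males, −0.22 in the 7100s animals and −0.20 in the 5 libraries that share a last title field. With sex as a term in limma it was −0.39 (SE 0.11, limma adjusted p 0.103). This ratio and that of Gnai2 to Gnao1 share Gnai2 and are not independent of each other. They were the 2 of the 10 tested ratios whose groups did not overlap. For single genes the groups overlapped in level for 9 of the 9 members, where only 1.4% of all tested genes had groups that did not overlap.

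**Figure D2:**
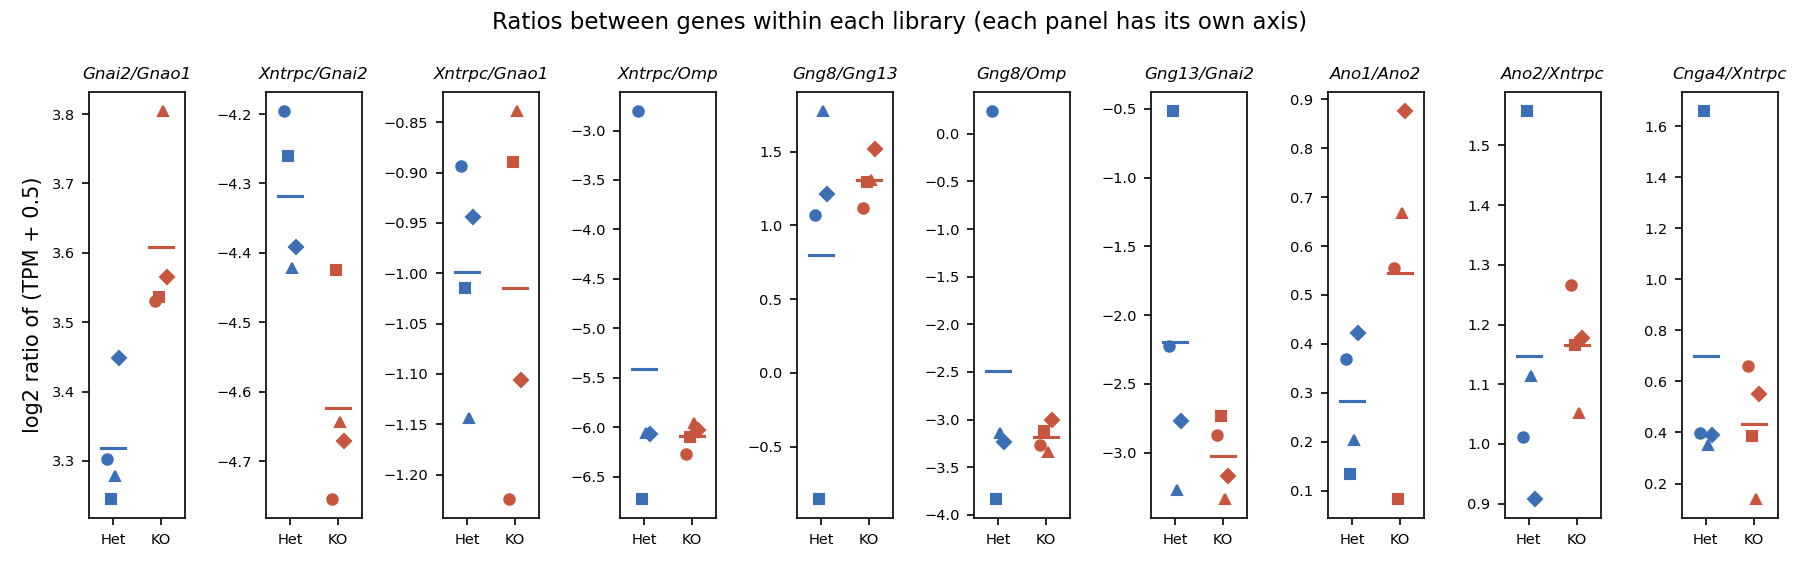
Log2 ratios of (TPM + 0.5) between pairs of members within each library, heterozygous (blue) and knockout (red), with markers for replicates as circle, square, triangle and diamond for 1 to 4 and lines for group means. The groups are separate for Gnai2/Gnao1 and Xntrpc/Gnai2, and heterozygous replicate 1 stands alone in both ratios to Omp. Heterozygous replicate 2 stands alone for Gng8/Gng13, Gng13/Gnai2 and Cnga4/Xntrpc and is highest for Ano2/Xntrpc.

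Ano1 and Ano2 are the calcium-activated chloride channels, and Ano1 is made by glands and other epithelia too. Ano1 stood at 24.5, 18.7, 34.7 and 31.2 TPM in heterozygous and at 25.7, 23.5, 36.9 and 47.1 TPM in knockout libraries, with a fold change of 0.0052 (SE 0.37). Ano2 stood at 18.9, 17.01, 30.0 and 23.1 TPM in heterozygous and at 17.3, 22.2, 23.0 and 25.5 TPM in knockout libraries, with a fold change of −0.23 (SE 0.35), or −0.15 without knockout replicate 1. In the 7100s animals without a sex term Ano1 was at 0.15 and Ano2 at −0.079. The groups overlapped for both genes. Ano1 exceeded Ano2 in 8 of 8 libraries. The log2 ratio of Ano1 to Ano2 was 0.13 to 0.42 in heterozygous and 0.084 to 0.88 in knockout libraries. The groups differed by 0.26 (exact permutation p = 0.2, or 0.571 adjusted), by 0.42 without knockout replicate 2 and by 0.15 without knockout replicate 4. The ratio of Ano2 to Xntrpc differed by 0.018 on the log2 scale (exact permutation p = 0.914, adjusted 0.943).

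Cnga4 encodes a modulatory subunit of the olfactory cyclic nucleotide channel, found in vomeronasal as well as main olfactory neurons. It stood at 12.1, 18.3, 17.5 and 16 TPM in heterozygous and at 11.2, 12.7, 12.02 and 16.3 TPM in knockout libraries. Heterozygous replicate 2 was highest, and the groups overlapped. The fold change was −0.42 (SE 0.35), or −0.17 in the 7100s animals without a sex term. The log2 ratio of Cnga4 to Xntrpc was 1.66 there, against 0.14 to 0.66 over the remaining 7 libraries. Its group difference of −0.26 (exact permutation p = 0.657, adjusted 0.943) was 0.055 without that library.

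Omp was the most abundant member, with 1 exception. It stood at 66.6, 627, 943 and 844 TPM in heterozygous and at 571, 692, 703 and 749 TPM in knockout libraries. Heterozygous replicate 1 was 10.5 times below the median of the other 7 libraries, on 2339 reads. The labels name no altered allele other than that of Tex15 for any animal, and whether the Omp gene of this animal is unaltered was not tested. The other 8 members of that library lay within the range of the other libraries. Its olfactory receptor sum, at 65.4 TPM, was below the 66.6 to 393 TPM of the others. Of 14 tested genes within 500 kb of Omp, 1 was below all other libraries in heterozygous replicate 1, and the lowest of the 14 was at 0.488 of the median of the others. Capn5, whose span holds Omp, was at 5.80 TPM there and at 4.10 to 16.9 TPM elsewhere. Its title, like those of heterozygous replicate 2 and knockout replicate 4, ends in a field of its own.

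The Omp comparison rested on this library. In the fit of all 8 libraries the fold change was 1.28 (SE 0.53, limma adjusted p 0.702), the only one of the 9 with an unadjusted p under 0.05. Heterozygous replicate 1 was the only male control. Without a sex term the fold change of all 8 libraries was 0.51 (SE 0.58). Without heterozygous replicate 1 it was −0.40 (SE 0.45, limma adjusted p 1), a fit with sex in which no male control is left, so that this value compares the 1 female knockout library with 3 female heterozygous ones. In the 7100s animals without a sex term it was −0.21 (SE 0.25). Without knockout replicate 1 it was 2.95 (limma adjusted p 8.28e-05), a fit in which every knockout is male and heterozygous replicate 1 is the only male control. Without heterozygous replicate 4 it was 1.37 (limma adjusted p 0.0131), also past the threshold. Adjusted p-values ran from 8.28e-05 to 1 over the alternatives. The log2 ratio of Xntrpc to Omp was −2.81 in that library, against −6.72 to −5.95 over the remaining 7. Over all 8 libraries it differed by −0.67 between the groups, and the ratio of Gng8 to Omp by −0.69 (exact permutation p = 0.8 for each, or 0.943 adjusted). With sex as a term in limma they differed by −1.60 (SE 0.67) and −1.63 (SE 0.73), with a limma adjusted p of 0.162 for each. The 6 animals of the 7100s gave −0.023 and 0.0024.

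**Figure D3:**
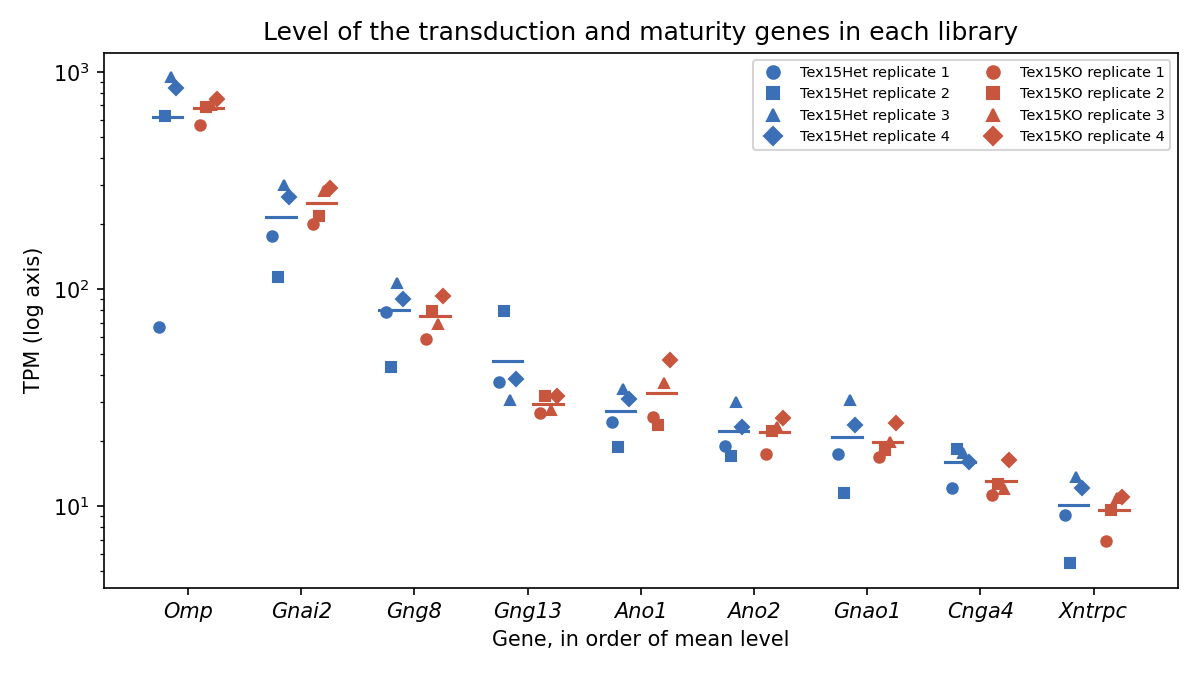
TPM (log axis) of the 9 members in each library, ordered by mean level, heterozygous (blue) and knockout (red), with lines at group means. Heterozygous replicate 1 (blue circle) lies far below the rest for Omp, and heterozygous replicate 2 (blue square) is lowest for 6 members and highest for Gng13 and Cnga4.

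Across all 9 members, 0 of 9 were called in the limma fit (adjusted p under 0.05), with 1 at an unadjusted p under 0.05 and 0 called by limma-voom on the recovered reads, against 0.586% of the 20305 tested genes. Relative to the median gene, 6 of 9 lay lower in knockout, with a median of −0.23 and a range of −0.71 to 1.28. Scaled instead to pan-neuronal genes, Gnao1 was at −0.0065 (SE 0.14), Xntrpc at −0.13 (SE 0.15), Gng8 at −0.15 (SE 0.16), Gnai2 at 0.26 (SE 0.19), Gng13 at −0.51 (SE 0.54), Ano1 at 0.21 (SE 0.19), Ano2 at −0.031 (SE 0.18), Cnga4 at −0.22 (SE 0.30) and Omp at 1.48 (SE 0.61), none past the adjusted test.

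**Figure D4:**
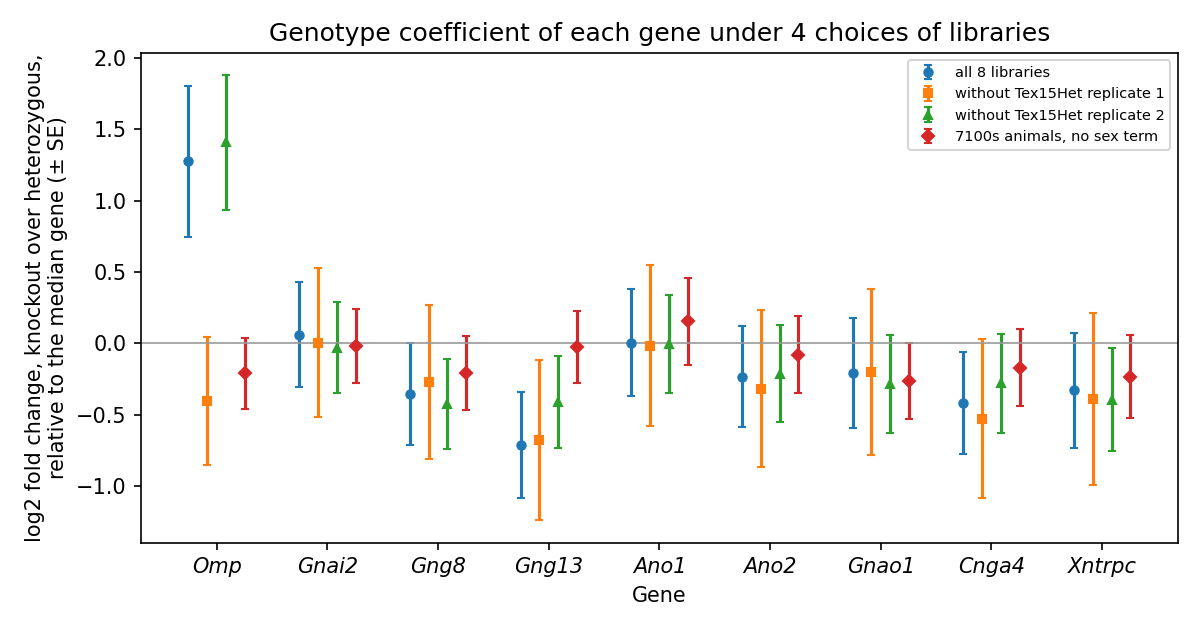
Log2 fold change of each member relative to the median tested gene, knockout over heterozygous, with SE bars, in fits of all 8 libraries, without heterozygous replicate 1, without heterozygous replicate 2 and of the 7100s animals without a sex term. Omp is above 0 only where heterozygous replicate 1 is included, and Gng13 moves toward 0 without heterozygous replicate 2.

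By mean level over the 8 libraries, the order was Omp (649 ± 263 TPM, SD, n = 8), Gnai2 (231 ± 66.1), Gng8 (77.3 ± 19.96), Gng13 (38.0 ± 17.1), Ano1 (30.3 ± 9.12), Ano2 (22.1 ± 4.40), Gnao1 (20.3 ± 5.82), Cnga4 (14.5 ± 2.80) and Xntrpc (9.82 ± 2.68). TPM is per length, so genes can be compared, with the limit given for Xntrpc. Gnai2 exceeded Gng8 in 8 of 8 libraries. Gng13 exceeded Ano1 in 5 of 8 and Ano2 exceeded Gnao1 in 6 of 8, so these neighbours did not separate beyond their spread.

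The members differed in how closely they kept step. Of the 36 ratios among the 9, that of Xntrpc to Gnao1 varied least, with an SD of 0.14 on the log2 scale over 8 libraries, followed by Xntrpc to Gng8 and Gnao1 to Gng8. The ratio of Gng13 to Omp varied most, with an SD of 1.36. This order rests on heterozygous replicates 1 and 2: within the 7100s animals Gng8 to Cnga4 varied least (SD 0.092) and Gng13 to Ano1 most (0.39), with 0.15 for Xntrpc to Gnao1 and 0.20 for Gng13 to Omp. Over the 11587 genes that averaged 5 TPM or more, the pattern most like that of Xntrpc across the 8 libraries was that of Rd3 (Pearson r = 0.995), then Gm16364 (0.994) and Golga7b (0.991). For Gnai2 they were Rhoq (0.998), Eif2ak3 (0.997) and Ptpn9 (0.996), and for Gnao1 B3gnt8 (0.988), Rtp4 (0.984) and Gm50107 (0.983). For Omp they were Gm45104 (0.988), Gm19196 (0.973) and Acp1 (0.962). These are descriptions over 8 libraries that share their scale factors.

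Other genes of the cascade were taken from a list of 12, of which 11 were tested and Kcnj3, a potassium channel gene, was below the filter. Of the 11, 0 were called by limma and 0 had an unadjusted p under 0.05, against 3.1% of all tested genes. Their median was −0.046 relative to the median gene, with 5 of 11 above it. Itpr3, the receptor that releases calcium from internal stores, had the lowest unadjusted p of the list: heterozygous libraries averaged 6.34 ± 3.30 TPM and knockout libraries 10.7 ± 4.62 TPM (SD, n = 4), a fold change of 0.56 (SE 0.47).

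Lists of the cells around these neurons showed 0 called genes as well in the limma fit, where 0.586% of all tested genes were called. At an unadjusted p under 0.05 were 3 genes, where all tested genes had 3.1%. The number of genes tested in each list is given below with its median. The 3 genes were Stoml3 of the main olfactory list (−1.31, SE 0.46) and Bglap and Ibsp of the cartilage and bone list (0.71, SE 0.38, and 0.79, SE 0.43). As tested, before the median was subtracted, their fold changes were −1.11, 0.91 and 0.98. Median fold changes relative to the median gene were −0.25 for 8 pan-neuronal genes, −0.068 for 6 immature neuron genes, 0.42 for 5 progenitor genes and −0.51 for 6 supporting cell genes. They were −0.013 for 4 apical and −0.075 for 4 basal markers, −0.27 for 7 main olfactory genes, 0.14 for 4 gland genes, 0.18 for 4 glial genes, 0.12 for 5 immune genes, 0.35 for 4 endothelial and blood genes and 0.52 for 4 cartilage and bone genes. In the 7100s animals without a sex term the immune median was −0.31, the cartilage and bone median −0.19, the gland median 0.45, the pan-neuronal median −0.063, the main olfactory median −0.10, the supporting cell median 0.18, the progenitor median 0.24 and the endothelial and blood median 0.66. In that fit 2 of 5 immune, 2 of 4 endothelial and blood and 1 of 7 main olfactory genes had an unadjusted p under 0.05, against 3.85% of all genes tested in it. Without heterozygous replicate 2 the supporting cell median was −0.13 and the gland median −0.051. Uchl1, the most abundant pan-neuronal gene, stood at 230 ± 67.2 and 233 ± 44.8 TPM (SD, n = 4), and Gap43, which growing axons make, at 36.4 ± 14.04 and 39.8 ± 10.4 TPM. Kirrel2 (72.3 ± 38.9 and 73.5 ± 13.7 TPM) led the apical list and Calr4 (205 ± 78.9 and 205 ± 28.4 TPM) the basal one. In each of these genes the spread of heterozygous libraries exceeded the difference between groups.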

How the data were processed

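The authors deposited 1 table of TPM values with a column per library (column sums of 1000000), and 0 sample columns were left unused. Per the submitters' processing notes, Trim Galore 0.6.5, cutadapt 5.1, STAR 2.7.11b and deepTools 3.5.5 were used with build mm10 (GRCm38); the counting program is not given in the sources used here. Per the labels' protocols, polyadenylated RNA with an integrity number above 7 was sequenced from strand-specific libraries as paired reads of 150 bases. Reads were recovered as TPM times exon length (GENCODE M21) over the worth of 1 read; 97.9% to 98.4% of low values (up to 10 reads) lay within 0.05 of a whole read.

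The 20305 genes that averaged 0.5 TPM or more were fitted as log2(TPM + 0.5) in limma 3.58.1 (R 4.3.3) with genotype and sex, an eBayes trend and Benjamini-Hochberg adjustment over all of them. 10 ratios of members and 2 receptor ratios had two-sided exact permutation tests. Per the labels each library is 1 mouse, and 5 libraries of both groups share the last field of the title, whose meaning is not stated. The members and lists were chosen with earlier results of these data known. Named were the members, Tex15, list genes that were called, most abundant or lowest in p, and the 3 genes most like Xntrpc, Gnai2, Gnao1 and Omp; others were named after their values were seen. Some list genes that the rule covers are not reported here. Library numbers 1 to 4 occur in both groups. Alternatives were other pseudocounts (0.1 and 1), filters, scalings, covariates, animal series and left-out libraries, and, added after the data were seen, limma-voom on recovered reads and the libraries that share the last title field.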

Additional observations from a re-analysis of the deposited data

Results flagged for a closer look

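Of 42 groups of 4 libraries examined on the log2 scale, 5 held a library set apart from the other 3 by more than Dixon's critical share of the group's range, where chance gives about 1 in 20. Heterozygous replicate 1 was low for Omp (gap over range 0.846) and high for the ratios Xntrpc/Omp (0.832) and Gng8/Omp (0.830), which share that Omp value. Heterozygous replicate 2 was high for Cnga4/Xntrpc (0.966), and knockout replicate 3 was high for Gnai2/Gnao1 (0.871).

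In 7 of 21 measures every knockout library moved one way from the heterozygous mean of its own sex in females and the other way in males. The difference between the sexes was not tested, since there was 1 female knockout and 1 male heterozygous library. The 21 measures share genes, and how many would show such a pattern by chance was not computed. Levels here are log2(TPM + 0.5) as deposited, not relative to the median gene. Males minus females, the log2 difference was 0.65 for Xntrpc, 0.64 for Gnai2, 0.51 for Gnao1, 0.70 for Ano2 and 3.89 for Omp. It was −3.23 for Xntrpc/Omp and −3.52 for Gng8/Omp. Among these 5 genes the differences in females ran from −0.47 for Omp to −0.065 for Gnai2, and in males from 0.19 for Xntrpc to 3.41 for Omp. The 3 values with Omp rest on heterozygous replicate 1. The remaining members lay the same way, at 0.36 for Gng8, 0.47 for Gng13, 0.57 for Ano1 and 0.75 for Cnga4. Tested member ratios without Omp ran from −0.17 for Gng13/Gnai2 to 0.14 for Xntrpc/Gnao1. The part of library-wide scale in the levels was not tested.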

How the results depend on the processing

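Over 22 results and 369 alternative values, 325 kept their direction and their side of the threshold, or for the count of called genes stayed within 1.5 times of 119. The log2 ratios of Gnai2/Gnao1 and Xntrpc/Gnai2 kept their sign when any 1 library was left out (0.23 to 0.33 and −0.37 to −0.26). In the 7100s animals, where gene fits also lack the sex term, the sign turned for Gnai2 (−0.016), Omp (−0.21), Xntrpc/Gnao1 (0.029), Gng8/Gng13 (−0.18), Gng8/Omp (0.0024) and Cnga4/Xntrpc (0.064), and 184 genes were called. In the 5 libraries that share a last title field, an alternative chosen after seeing the data whose gene fits also lack the sex term, it turned for Gnai2 (−0.013), Gng13 (0.028), Omp (−0.17), Xntrpc/Gnao1 (0.060), Gng8/Gng13 (−0.25), Gng13/Gnai2 (0.040) and Cnga4/Xntrpc (0.025), and 374 genes were called. Over all 8 libraries without the sex term 132 genes were called, and Omp was at 0.51, Gnai2 at 0.14, Ano1 at 0.12 and Ano2 at −0.15. With no filter 72 genes were called. The Ano1 value near 0 turned to −0.015 with a pseudocount of 0.1, −0.0015 with a filter at 1 TPM, −0.021 with median-ratio scaling and −0.025 with limma-voom. V2R sum/Gnao1 with a sex term was −0.40 and past the threshold. Leaving out 1 library gave −0.029 to 0.12 for Gnai2, −0.051 to 0.054 for Ano1, −0.40 to 2.95 for Omp, 83 to 254 called genes (202 without heterozygous replicate 2, 254 without heterozygous replicate 4 and 190 without knockout replicate 4), −0.074 to 0.054 for Xntrpc/Gnao1, −1.11 to 0.20 for Xntrpc/Omp, −0.042 to 0.83 for Gng8/Gng13, −1.14 to 0.22 for Gng8/Omp, −0.062 to 0.15 for Ano2/Xntrpc and −0.38 to 0.055 for Cnga4/Xntrpc. The cause was not tested beyond the libraries named.

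The library numbers did not pair the samples: same-numbered libraries correlated at −0.061 to 0.097 in their deviations. With the number as a replicate block the Omp value of 1.28 passed the threshold (limma adjusted p 0.00976) and 128 genes were called. The block changed no other member's call.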
